A study of Rattus norvegicus with 17 samples.

Results

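The genes described here are the Wnt ligands, their receptors, the secreted inhibitors of the pathway, its cytoplasmic relay, and the transcription factors and target genes at its end. They were chosen by gene symbol: every probe set with a single symbol that starts with Wnt, Fzd, Sfrp or Dkk followed by a number, or that is 1 of a short list of named pathway genes. This gave 45 of the 14506 genes with a symbol of their own, made up of 17 ligands, 10 receptors, 9 secreted inhibitors, 5 relay proteins, 2 transcription factors and 2 target genes. Each of the 45 was read by 1 probe set. Tcf7l2 was not analysed here, and Wisp1 is the older name of Ccn4, which was.

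Wnt proteins are secreted lipid-modified ligands that bind Frizzled receptors (Fzd) together with the co-receptors Lrp5 and Lrp6. In the canonical branch, receptor binding stops a complex of Axin, Apc and the kinase Gsk3b from marking beta-catenin (Ctnnb1) for degradation, and beta-catenin then acts with Lef1 and Tcf factors on target genes. Other branches, of which Wnt5a is the best known ligand, signal without beta-catenin. In the heart the pathway is known for its part in lineage choice of the embryo and in the response to pressure load and injury.

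All cultures held heart muscle cells taken from the ventricles of neonatal Sprague-Dawley rats and were 5 days old. Those of 12 arrays were given 10% uremic plasma, drawn before (6 arrays) or after (6 arrays) nocturnal hemodialysis (NHD), which is long dialysis during sleep. Those of 3 arrays were given control plasma, whose share is not stated, and those of 2 arrays phenylephrine, an agonist of alpha-adrenergic receptors that makes such cells grow. The titles of the phenylephrine samples name no plasma, and whether these cultures were given any is not stated. If they were not, each comparison of phenylephrine with a plasma group also differs in plasma. The sample titles call the replicates biological. They do not say whether these are separate cultures or plasma donors, so that p-values measure only the spread between these arrays.

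Values are log2 RMA expression values, so that a difference of 1 is a 2-fold change. They do not compare levels between genes, since each probe set has its own brightness. Array medians lay between 6.89 and 7.03. All 10 markers of cardiac myocytes were above the median probe set on every array, and their summed linear value was 81714 to 97930 before NHD, 96662 to 103890 after NHD, 81921 to 83387 with control plasma and 93543 to 94168 with phenylephrine. Against control plasma 2 of the 10 were called higher before NHD, 6 after NHD and 2 with phenylephrine. These are 20%, 60% and 20%, against 3.75%, 16.7% and 11.7% of all genes. The 10 fibroblast markers, 5 of them above the median probe set on every array, varied more. Their sum was 1637 to 10157 before NHD, 2156 to 9647 after NHD, 3040 to 3291 with control plasma and 12358 to 15097 with phenylephrine. Of the 10, S100a4 alone passed against control plasma, 1.35 ± 0.24 higher after NHD and 1.84 ± 0.31 with phenylephrine (adjusted p = 0.00111 and 0.00132, limma). It was also 1.03 ± 0.20 higher after than before NHD (adjusted p = 0.04). In such bulk cultures fewer cells of a type and less RNA per cell cannot be told apart. Of the 5 endothelial markers measured and the 5 leukocyte markers, 0 were above the median probe set on every array. The endothelial sum was 465 to 1391 before NHD, 457 to 834 after NHD, 475 to 551 with control plasma and 920 to 934 with phenylephrine. Its member Kdr rose against control plasma by 1.79 ± 0.49 log2 units before NHD, 1.58 ± 0.49 after NHD and 1.89 ± 0.63 with phenylephrine (adjusted p = 0.046, 0.0237 and 0.0458). The list did not move as 1: of its 5 markers, 2 were above control before NHD, 1 after NHD and 5 with phenylephrine. Cdh5 passed with phenylephrine as well (0.51 ± 0.11, adjusted p = 0.00547, limma). The 5 smooth muscle markers summed to 27636 to 36585 before NHD, 25817 to 33082 after NHD, 32878 to 36974 with control plasma and 27211 to 28019 with phenylephrine. Of these, Cnn1 fell after NHD by 1.16 ± 0.29 (adjusted p = 0.00859) and Acta2 with phenylephrine by 0.40 ± 0.12 (adjusted p = 0.0263). The part of these cell types in the results was not tested.

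Set against control plasma, the cultures with uremic plasma or phenylephrine had more RNA of beta-catenin, the co-receptor Lrp6 and the secreted inhibitor Sfrp1, and less of the receptor Fzd3. These 4 genes passed before NHD, where Ctnnb1 was 0.84 ± 0.17 (SE) log2 units higher and Fzd3 0.86 lower. They passed with larger differences after NHD, 1.20 for Ctnnb1 and -1.26 for Fzd3, joined by Wnt5a, Fzd2, Lrp5 and Ccn4, which rose, and Gsk3b, which fell. With phenylephrine Lef1 and Dkk3 rose too and Fzd4 and Dvl1 fell. The other 16 ligands and Axin2, a target gene often used to read the canonical branch, did not pass in any of these groups. The 3 comparisons share the same 3 control arrays, and their likeness is therefore no independent support for any of them.

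**Figure D1:**
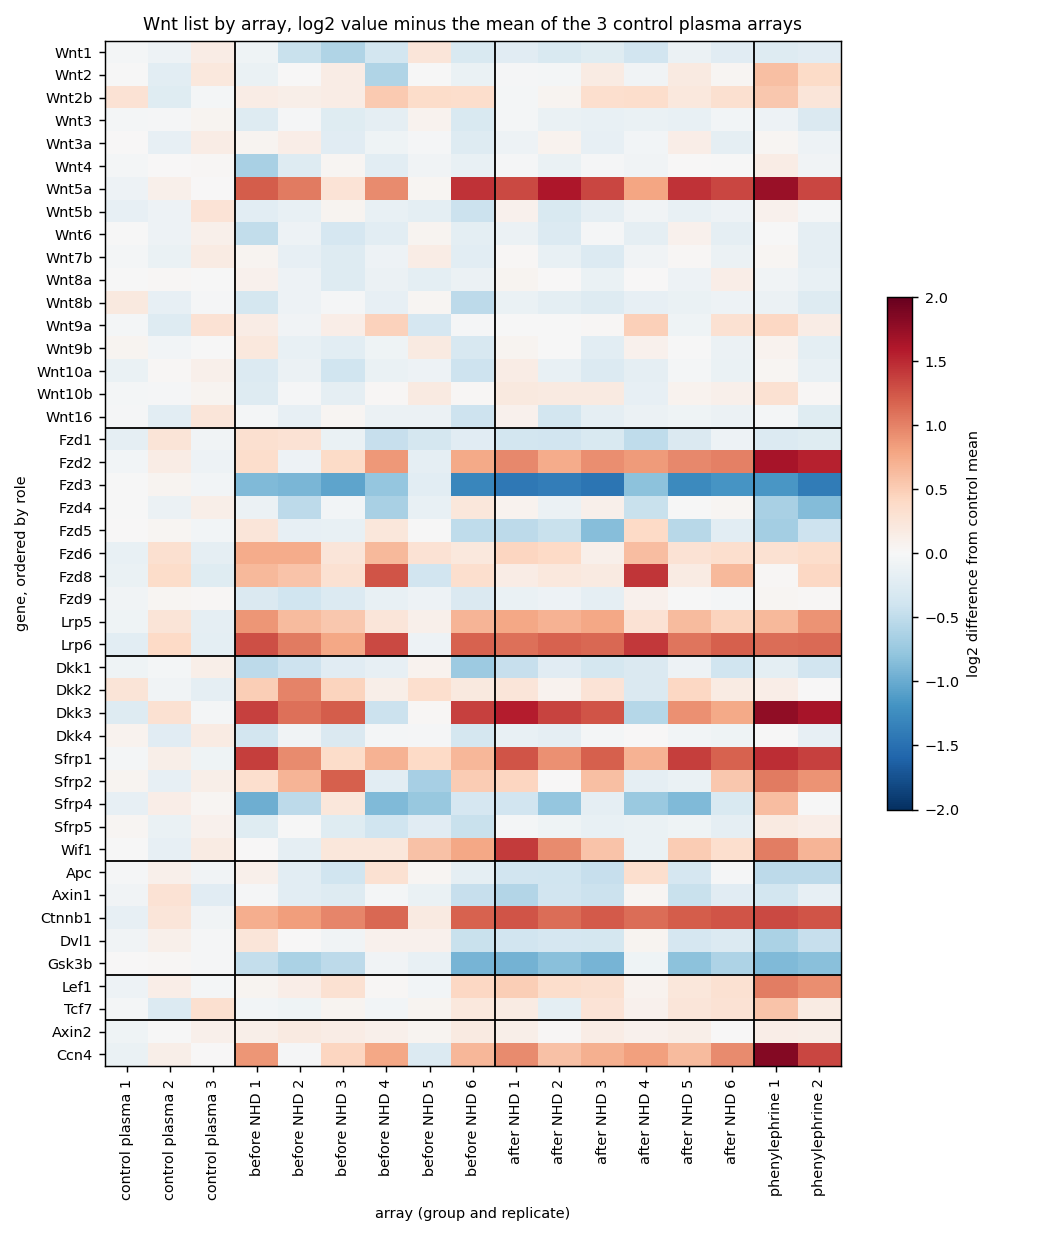
Colour gives each gene's log2 value on each of the 17 arrays minus the mean of the 3 control plasma arrays, with genes as rows in order of role and arrays as columns by group. Wnt5a, Fzd2, Lrp6, Sfrp1 and Ctnnb1 are above control on all after NHD and phenylephrine arrays and Fzd3 is below, while before NHD replicate 5 stays near control in most of them.

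Each probe set was tested with limma in a fit of all 17 arrays, with Benjamini-Hochberg adjustment over all 29214 probe sets and a threshold of 0.05. Before NHD, 3 of the 45 members were higher and 1 was lower than with control plasma, or 6.67% and 2.22%, against 3.75% and 2.09% of all 14506 genes. After NHD, 7 were higher and 2 lower, or 15.6% and 4.44%, against 16.7% and 16.3% of all genes. With phenylephrine, 9 were higher and 4 lower, or 20% and 8.89%, against 11.7% and 11.9%. Such shares lie near or below the background in several places, and the counts are no result about the list as a whole. The median log2 difference of the members was -0.06 before NHD, -0.04 after NHD and 0.04 with phenylephrine, where the medians of all genes were -0.05, -0.07 and -0.06.

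The calls against control plasma differed in how far they held when single arrays were left out. All 4 calls before NHD were lost without control plasma replicate 1 (adjusted p from 0.148 to 0.205) or replicate 3 (0.138 to 0.194), where 0 members passed with limma and 14 and 9 had an unadjusted p under 0.05. In each of these fits 0% of all genes were called. Without control plasma replicate 1 the differences were -0.86 for Fzd3, 0.81 for Lrp6, 0.73 for Sfrp1 and 0.76 for Ctnnb1. Without replicate 3 they were -0.89, 0.82, 0.71 and 0.80 in the same order. With all arrays, 14 members and 7324 of the 29214 probe sets had an unadjusted p under 0.05 in this comparison (limma). The 4 calls were also lost in a fit of only the 2 groups compared (adjusted p from 0.199 to 0.212) and with each array's SD as a term, where 0 passed and 11 had an unadjusted p under 0.05. Of all genes, 0% and 0.00689% were called there. Without before NHD replicate 5 there were 11 calls, against 19.6% of all genes. There was 1 call without before NHD replicate 2, and there were 2 without before NHD replicates 1, 4 or 6, after NHD replicates 1, 3, 5 or 6, or either phenylephrine array, where between 0.979% and 3.76% of all genes were called. After NHD the count ran from 7 to 10 whichever array but 1 was left out, beside 19.5% to 35.2% of all genes. The exception was after NHD replicate 4, without which the count was 14, when Fzd5, Axin1, Dkk3, Wif1 and Lef1 passed too and 34% of all genes were called. With phenylephrine it fell to 6 and 7 without phenylephrine replicate 1 or 2 and to 7 without control plasma replicate 1 or 3. The share of all genes called fell with it, from 23.6% to 7.26% and 8.26% and to 14.7% and 15.6%.

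**Figure D2:**
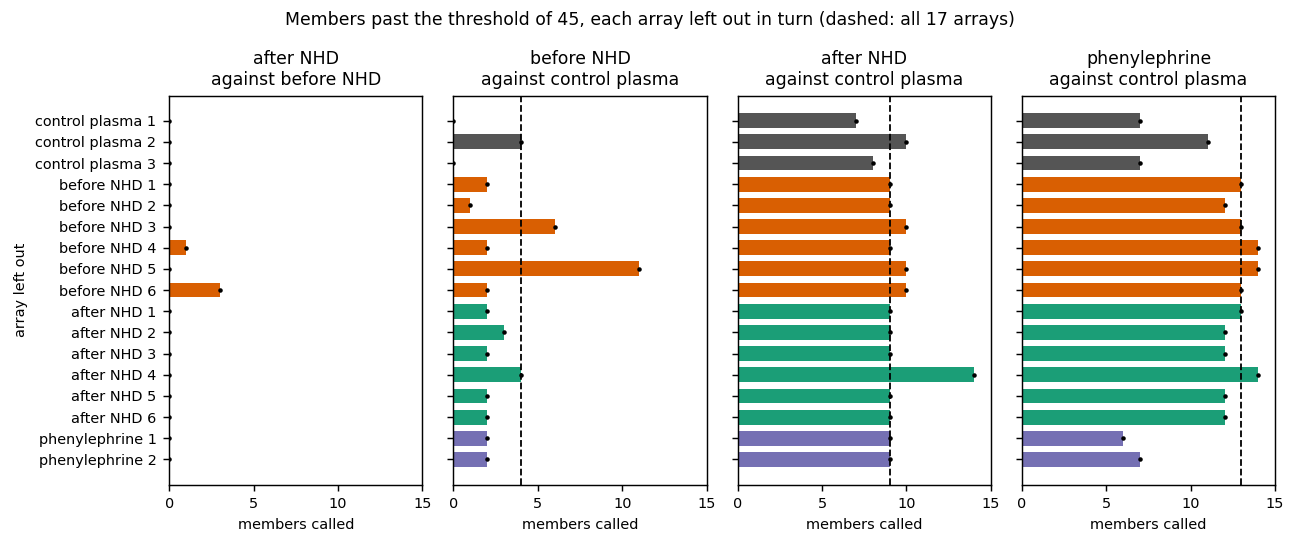
Bars give the number of the 45 members past the threshold in each of 4 comparisons when the array named on the left axis is left out, coloured by its group, and the dashed line is the number with all 17 arrays. The before NHD count runs from 0 to 11 and the phenylephrine count from 6 to 14, both against control plasma, while the after NHD count lies between 7 and 14.

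Wnt5a, known for signalling without beta-catenin, was the ligand that passed against control plasma. It read 6.83, 7.04 and 6.95 in the control plasma replicates 1 to 3, and 8.67 and 8.28 with phenylephrine. After NHD its lowest, median and highest values were 7.73, 8.27 and 8.56, and before NHD they were 6.98, 7.93 and 8.39. All after NHD and phenylephrine arrays lay above the controls, while the before NHD arrays spanned both, with replicates 5 (6.98) and 3 (7.22) nearest to control. Against control plasma Wnt5a was 0.83 ± 0.26 log2 units higher before NHD, which did not pass (adjusted p = 0.0678, limma), 1.31 ± 0.26 higher after NHD (adjusted p = 0.00174), a 2.48-fold difference, and 1.53 ± 0.33 higher with phenylephrine (adjusted p = 0.00498). The last call was lost without phenylephrine replicate 1 (adjusted p = 0.074).

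None of the other 16 ligands passed against control plasma. Their log2 differences ran from -0.26 to 0.28 before NHD and from -0.25 to 0.21 after NHD, the lower end being Wnt1 and the upper end Wnt2b in each case. With phenylephrine they ran from -0.24 for Wnt1 to 0.49 for Wnt2 (adjusted p = 0.0644). The probe sets of 14 of the 17 ligands had a mean below the median probe set, Wnt8a being the dimmest at 5.32, and the table holds no detection calls. A small difference of such a probe set does not show that the gene was steady, since RMA compresses differences near the floor. Among all 45 members, 22 were below the median probe set, and Lef1 was the 1 of these called against control plasma.

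Of the receptors, the Frizzled genes moved in different directions. Fzd2 read 8.70, 8.90 and 8.65 with control plasma and 10.40 and 10.29 with phenylephrine. After NHD its values were tight, with a lowest, median and highest of 9.50, 9.69 and 9.76, whereas before NHD they were 8.57, 9.11 and 9.61. Thus the after NHD arrays lay wholly between the control and the phenylephrine arrays, and the before NHD arrays reached from control to after NHD values. The difference from control was 0.35 ± 0.19 before NHD (adjusted p = 0.257), 0.91 ± 0.19 after NHD (adjusted p = 0.0023) and 1.59 ± 0.24 with phenylephrine (adjusted p = 0.000683), a 3.01-fold rise.

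Fzd3, a Frizzled known for guiding axons and for planar cell polarity, was the member with the deepest fall. It read 8.42, 8.49 and 8.37 with control plasma, higher than on every other array. Its lowest, median and highest values were 7.13, 7.53 and 8.21 before NHD and 6.97, 7.10 and 7.61 after NHD, with 7.26 and 7.03 under phenylephrine. Fzd3 fell by 0.86 ± 0.18 log2 units before NHD (adjusted p = 0.0248), by 1.26 ± 0.18 after NHD (adjusted p = 0.000455), which is 2.39-fold lower, and by 1.28 ± 0.24 with phenylephrine (adjusted p = 0.00201). The before NHD call was also lost without before NHD replicate 2 (adjusted p = 0.0518).

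Fzd4, which serves both Wnt ligands and norrin, passed with phenylephrine alone of the 3 groups, a difference between groups taken up in the direct comparison with uremic plasma. It read 10.09 and 9.87 there and 10.72, 10.62 and 10.85 with control plasma, and fell by 0.75 ± 0.21 (adjusted p = 0.0227). The call was lost without control plasma replicate 1 or 3 or either phenylephrine array (adjusted p from 0.0565 to 0.177). With uremic plasma its differences from control were -0.22 ± 0.17 before NHD and -0.06 ± 0.17 after NHD. Fzd1, Fzd5, Fzd6, Fzd8 and Fzd9 did not pass against control plasma in any group, with differences between -0.55 for Fzd5 with phenylephrine and 0.48 for Fzd6 before NHD.

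Both co-receptors were higher. Lrp6 read 8.95, 9.55 and 8.96 with control plasma and 10.28 on each phenylephrine array. Its lowest, median and highest values were 9.05, 10.27 and 10.48 before NHD and 10.22, 10.32 and 10.57 after NHD. Before NHD replicate 5 (9.05) was the 1 uremic plasma array within the range of the controls. Lrp6 rose by 0.92 ± 0.24 before NHD (adjusted p = 0.0411), by 1.18 ± 0.24 after NHD (adjusted p = 0.0022) and by 1.12 ± 0.31 with phenylephrine (adjusted p = 0.0193). The call before NHD was lost in 13 of the 17 fits that left out an array (adjusted p from 0.0535 to 0.205), and held without after NHD replicate 4, before NHD replicates 3 and 5 and control plasma replicate 2. The phenylephrine call was lost without control plasma replicate 1 or 3 or either phenylephrine array (adjusted p from 0.0663 to 0.111).

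Lrp5 showed smaller differences in the same direction. It read 8.24, 8.57 and 8.14 with control plasma, 8.97 and 9.22 with phenylephrine, and 8.61 to 9.09 (median 8.98) after NHD, with no overlap between controls and either of these groups. The rise was 0.60 ± 0.16 after NHD (adjusted p = 0.0122) and 0.78 ± 0.21 with phenylephrine (adjusted p = 0.0171), while the 0.51 ± 0.16 before NHD did not pass (adjusted p = 0.0738). The after NHD call was lost without control plasma replicate 1 or 3 (adjusted p = 0.062 and 0.074), and the phenylephrine call without these or either phenylephrine array (0.0558 to 0.158).

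**Figure D3:**
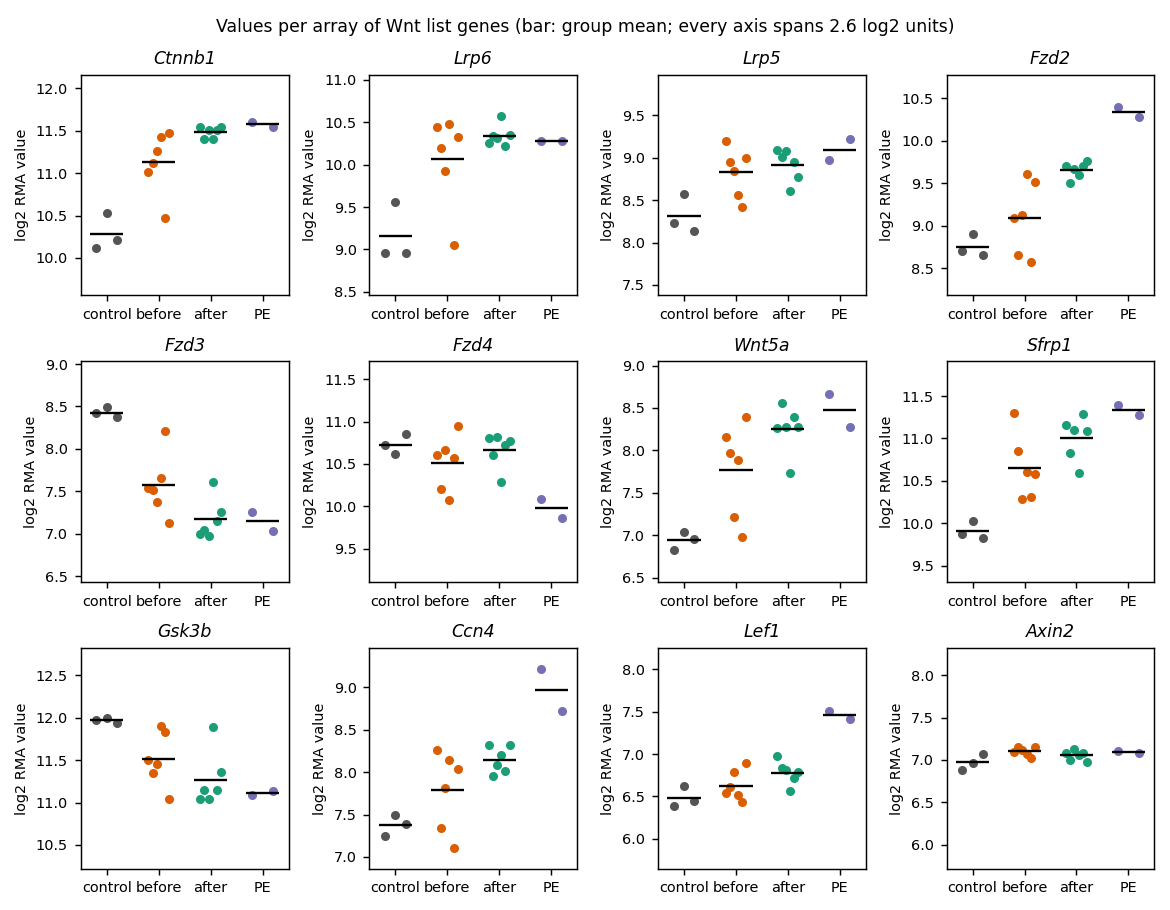
Points are the log2 RMA values of single arrays by group (PE is phenylephrine), bars are group means, and every axis spans the same number of log2 units. Ctnnb1, Lrp6, Fzd2, Wnt5a and Sfrp1 are higher and Fzd3 is lower on all after NHD and phenylephrine arrays than on the 3 control arrays, Lef1 stands highest with phenylephrine, and Axin2 lies between 6.88 and 7.15 on all 17 arrays.

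Among the secreted inhibitors, Sfrp1 rose in all 3 groups. Sfrp proteins bind Wnt ligands outside the cell through a domain like that of Frizzled. Sfrp1 read 9.87, 10.03 and 9.83 with control plasma, 11.39 and 11.27 with phenylephrine, 10.28 to 11.30 (median 10.59) before NHD and 10.60 to 11.29 (median 11.09) after NHD. No uremic plasma or phenylephrine array reached down to the controls. Sfrp1 was 0.75 ± 0.19 log2 units higher before NHD (adjusted p = 0.0387), 1.10 ± 0.19 after NHD (adjusted p = 0.000905) and 1.42 ± 0.25 with phenylephrine (adjusted p = 0.00146). The first of these calls was lost in 13 of 17 fits without an array (adjusted p from 0.0501 to 0.179), and held without after NHD replicates 2 and 4 and before NHD replicates 3 and 5.

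Dkk3, a member of the dickkopf family that, unlike Dkk1, is not known to bind Lrp6, had the largest difference of the list with phenylephrine, 1.71 ± 0.57 (adjusted p = 0.0452). It read 11.56 and 11.42 there and 9.52, 10.08 and 9.74 with control plasma. With uremic plasma it fell into separate values: 9.36 and 9.21 in the before and after NHD replicates numbered 4 and 9.80 in before NHD replicate 5, but 10.53 to 11.35 on the other uremic plasma arrays. The differences of 0.77 ± 0.44 before NHD and 0.88 ± 0.44 after NHD did not pass (adjusted p = 0.282 and 0.147). The phenylephrine call was lost without any 1 of 10 arrays, namely all control plasma and phenylephrine arrays, before NHD replicate 2 and after NHD replicates 2, 3, 5 and 6 (adjusted p from 0.051 to 0.194). Without after NHD replicate 4, Dkk3 passed after NHD as well.

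The fibroblast markers moved with part of this pattern. Their sum on the phenylephrine arrays was above that on every other array, and it was 2011 and 2156 in the before and after NHD replicates numbered 4, where Dkk3 was lowest. It was 2202 and 1680 in before NHD replicates 1 and 2, where Dkk3 read 11.15 and 10.87. The part of fibroblast markers in the differences of the members was not tested.

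**Figure D4:**
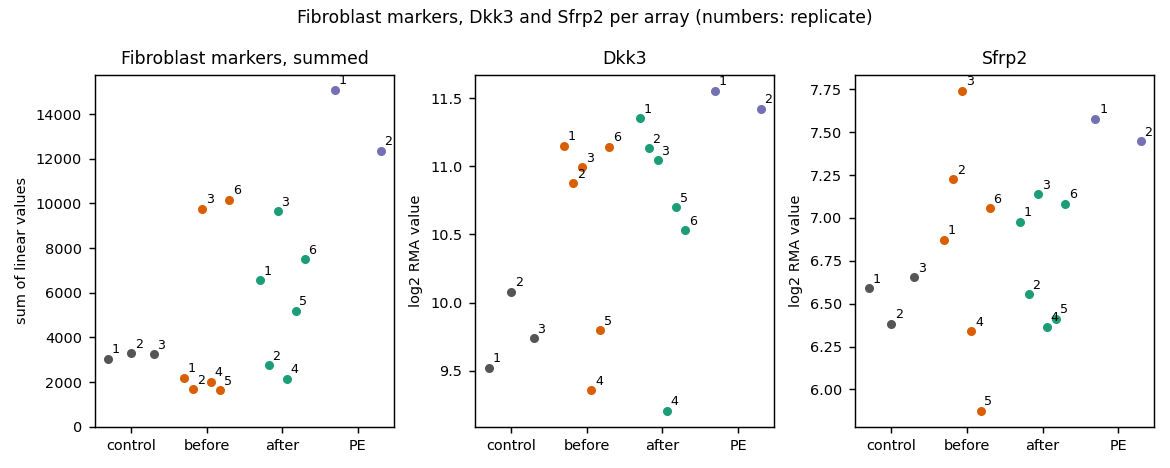
The left panel gives the sum of the linear values of 10 fibroblast markers, and the other panels the log2 values of Dkk3 and Sfrp2, for each array by group (PE is phenylephrine) with its replicate number. The replicates numbered 4 have low values in all 3 panels, and before NHD replicates 1 and 2 have low marker sums and Dkk3 values of 11.15 and 10.87.

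The remaining inhibitors did not pass against control plasma. Wif1, which binds Wnt ligands directly, read 6.91 to 7.25 with control plasma and 6.94 to 8.48 after NHD, a difference of 0.61 ± 0.26 (adjusted p = 0.0969). Sfrp2 was 0.97 ± 0.39 higher with phenylephrine (adjusted p = 0.0951). Sfrp4 was 0.54 ± 0.23 lower in each uremic plasma group (adjusted p = 0.16 before and 0.0918 after NHD). Dkk1, Dkk2, Dkk4 and Sfrp5 lay within 0.43 log2 units of control in every group, and Dkk2 was the dimmest inhibitor at a mean of 5.67.

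In the cytoplasmic relay, beta-catenin RNA rose in all 3 groups and the RNA of Gsk3b, a kinase that marks it, fell after NHD and with phenylephrine. The RNA of the related kinase Gsk3a, which is no member, rose by 0.77 ± 0.15 before NHD, 0.89 ± 0.15 after NHD and 0.67 ± 0.19 with phenylephrine (adjusted p = 0.0193, 0.000714 and 0.0209). Ctnnb1 read 10.12, 10.53 and 10.22 with control plasma and 11.61 and 11.55 with phenylephrine. After NHD it held between 11.40 and 11.55 (median 11.51), and before NHD it ran from 10.47 through a median of 11.19 to 11.47. Before NHD replicate 5 (10.47) was the 1 uremic plasma array that overlapped the controls. The rise was 0.84 ± 0.17 before NHD (adjusted p = 0.0208), 1.20 ± 0.17 after NHD (adjusted p = 0.000416), or 2.29-fold, and 1.29 ± 0.22 with phenylephrine (adjusted p = 0.00117). Beta-catenin is also a part of cell junctions, and the RNA level says nothing of the protein's stability.

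Gsk3b read 11.98, 12.00 and 11.94 with control plasma, above every other array. Its lowest, median and highest values were 11.04, 11.48 and 11.90 before NHD and 11.04, 11.15 and 11.89 after NHD, and it read 11.09 and 11.14 with phenylephrine. The top uremic plasma values were the replicates numbered 4, at 11.90 before and 11.89 after NHD. Gsk3b fell by 0.70 ± 0.19 after NHD (adjusted p = 0.0115) and by 0.86 ± 0.24 with phenylephrine (adjusted p = 0.0217), while the difference of -0.46 ± 0.19 before NHD did not pass (adjusted p = 0.143). The phenylephrine call was lost without control plasma replicate 1 or 3 or either phenylephrine array (adjusted p from 0.051 to 0.127).

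Dvl1, which carries the signal from Frizzled to the complex, fell with phenylephrine by 0.55 ± 0.17 (adjusted p = 0.0345), from 8.31, 8.48 and 8.35 with control plasma to 7.75 and 7.92. This call was lost without any of the 3 control or 2 phenylephrine arrays (adjusted p from 0.0628 to 0.219). Its differences with uremic plasma were -0.02 ± 0.13 before and -0.27 ± 0.13 after NHD. The scaffold genes of the complex did not pass in any group. Apc differed from control by -0.06 ± 0.17 before NHD, -0.21 ± 0.17 after NHD and -0.52 ± 0.22 with phenylephrine, and Axin1 by -0.19 ± 0.14, -0.34 ± 0.14 and -0.26 ± 0.18.

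**Figure D5:**
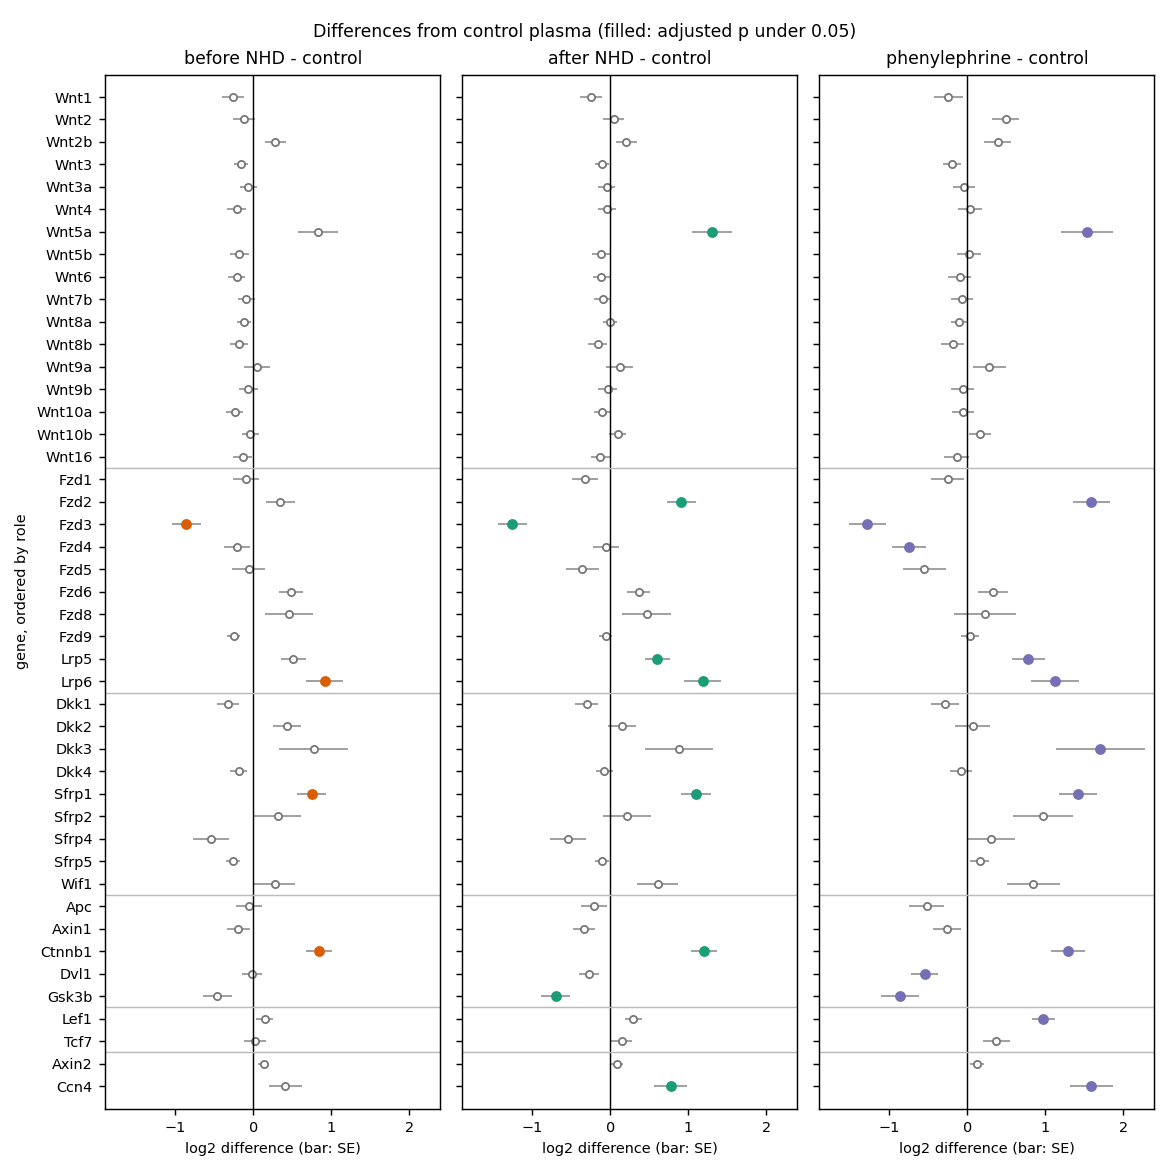
Points are log2 differences from control plasma of all 45 members, in order of role, for before NHD, after NHD and phenylephrine arrays, with standard errors as bars and filled points for an adjusted p under 0.05. Filled points number 4, 9 and 13 in the 3 panels, and 1 of the 17 ligands, Wnt5a, has any.

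At the end of the pathway the genes parted. Lef1, a factor that carries beta-catenin to DNA and is itself a target of the pathway, read 7.51 and 7.41 with phenylephrine, above all other arrays. It read 6.39, 6.62 and 6.45 with control plasma, 6.43 to 6.90 (median 6.57) before NHD and 6.56 to 6.97 (median 6.80) after NHD. Lef1 rose by 0.97 ± 0.15 with phenylephrine (adjusted p = 0.000648), 1.96-fold, and its differences of 0.14 ± 0.11 before and 0.30 ± 0.11 after NHD did not pass (adjusted p = 0.447 and 0.0612). The latter passed without after NHD replicate 4 and without before NHD replicates 5 and 6. Its probe set lies below the median probe set. Tcf7, the other factor, did not pass, at 0.37 ± 0.18 with phenylephrine (adjusted p = 0.16).

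Ccn4, a matricellular protein first described as a Wnt-induced gene, rose after NHD and with phenylephrine. It read 7.24, 7.49 and 7.38 with control plasma, 9.22 and 8.72 with phenylephrine, 7.95 to 8.32 (median 8.14) after NHD and 7.10 to 8.26 (median 7.92) before NHD. The after NHD arrays lay between the control and the phenylephrine arrays, and before NHD replicate 5 (7.10) lay below the controls. The difference was 0.77 ± 0.21 after NHD (adjusted p = 0.0132), 1.59 ± 0.28 with phenylephrine (adjusted p = 0.00138) and 0.41 ± 0.21 before NHD (adjusted p = 0.239). The after NHD call was lost without control plasma replicate 1 (adjusted p = 0.069), and the before NHD difference passed without before NHD replicate 5.

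Axin2, the feedback inhibitor whose gene answers canonical signalling in many tissues, did not pass in any comparison. It read 6.88, 6.96 and 7.08 with control plasma, 7.03 to 7.15 before NHD, 6.98 to 7.13 after NHD and 7.11 and 7.08 with phenylephrine. The difference from control was 0.13 ± 0.07 before NHD, 0.08 ± 0.07 after NHD and 0.12 ± 0.09 with phenylephrine (adjusted p = 0.272, 0.421 and 0.388). The 95% interval of the fit ran from -0.07 to 0.24 after NHD and from -0.08 to 0.32 with phenylephrine, so that a rise of the size seen for Ccn4 lies outside both. The mean of Axin2 was close to the median probe set, and how far this probe set responds to its RNA is not known from the table.

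The promoters of Axin2, Lef1 and Wnt5a are shown because these genes, at the end and at the start of the pathway, differed in their response. The windows run from 250 bases before to 50 bases after the gene start in RefSeq (build GRCr8, to which the array values are not tied), all on the plus strand. Capitals mark matches to letters of the Tcf and Lef motif, searched on both strands as CTTTGAT or CTTTGAA or CTTTGTT or CTTTGTA. All share the letters CTTTG, so that 1 place matches at most 1 of them.
Axin2, chr10:94398535-94398834: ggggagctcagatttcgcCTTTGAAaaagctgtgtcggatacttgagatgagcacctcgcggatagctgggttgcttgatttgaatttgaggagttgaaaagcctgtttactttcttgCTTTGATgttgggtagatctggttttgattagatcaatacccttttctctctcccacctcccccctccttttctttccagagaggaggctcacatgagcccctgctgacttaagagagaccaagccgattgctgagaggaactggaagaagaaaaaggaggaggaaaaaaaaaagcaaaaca
Lef1, chr2:222340463-222340762: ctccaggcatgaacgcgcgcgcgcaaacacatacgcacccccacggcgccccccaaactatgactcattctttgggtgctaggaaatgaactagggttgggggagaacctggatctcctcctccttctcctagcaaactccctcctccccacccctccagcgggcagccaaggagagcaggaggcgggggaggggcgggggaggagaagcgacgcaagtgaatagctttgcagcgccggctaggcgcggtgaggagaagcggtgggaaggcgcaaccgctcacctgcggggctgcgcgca
Wnt5a, chr16:3703415-3703714: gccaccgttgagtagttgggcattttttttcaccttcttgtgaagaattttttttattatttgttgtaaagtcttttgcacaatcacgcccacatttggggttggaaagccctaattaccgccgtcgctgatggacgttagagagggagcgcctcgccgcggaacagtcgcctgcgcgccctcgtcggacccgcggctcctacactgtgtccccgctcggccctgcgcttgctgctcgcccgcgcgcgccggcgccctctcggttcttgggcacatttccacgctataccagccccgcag

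The Axin2 window held 2 matches, at -232 to -226 and -132 to -126 from the start, and those of Lef1 and Wnt5a held 0. Windows were matched for 30 of the 45 members. Those of Wnt5b, Wnt7b, Wnt10b, Fzd2, Fzd3, Fzd6, Lrp5, Lrp6, Dkk2, Dkk3, Dkk4, Sfrp1, Sfrp4, Axin1 and Ccn4 were not. Of the 30, 6 held at least 1 match (Wnt3, Wnt8a, Dkk1, Sfrp5, Tcf7 and Axin2), or 20%, against 17.1% of all 33469 windows of the same length and 13.9% of the 12519 windows of genes named on the array. Of the 13 members called against control plasma, 6 had a window and 0 of these held a match. A match is a run of letters and not a shown binding site, and its absence concerns this window alone.

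Plasma from after NHD was also set against plasma from before NHD. With limma, 0 of the 45 members passed in either direction, against 0.379% of all genes higher and 0.103% lower. An unadjusted p under 0.05 (limma) was found for 7 of the 45 members and for 5402 of all 29214 probe sets. These 7 are therefore no result about the list. The nearest to the threshold was Fzd2, 0.56 ± 0.15 log2 units higher after NHD (adjusted p = 0.0845), the 2 groups overlapping at 9.50 to 9.61. Fzd3 differed by -0.40 ± 0.15 (adjusted p = 0.166), Ctnnb1 by 0.36 ± 0.14 (adjusted p = 0.171), Dvl1 by -0.26 ± 0.11 and Sfrp1 by 0.36 ± 0.16. The median log2 difference of the members was 0.06, against -0.01 over all genes.

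The scatter among the before NHD arrays was the larger. Over the members the SD had a median of 0.254 in that group, against 0.143 after NHD, 0.134 for the controls and 0.119 under phenylephrine. Over all probe sets the medians were 0.249, 0.160, 0.139 and 0.0941 in the same order, so that the larger scatter was not particular to the members. Nor was the nearness of before NHD replicate 5 to control. On the first principal component of all probe sets, which held 45.7% of the variance, it stood at -66.5. The controls stood at -72.2, -50.3 and -65.5, the other before NHD arrays at -25.2 to 40.8 and the after NHD arrays at 15.1 to 37.2. Without before NHD replicate 6 there were 3 calls after against before NHD, Fzd2 higher and Fzd3 and Dvl1 lower, where 11.5% of all genes were called. Without before NHD replicate 4, Fzd2 alone was called, where 11% of all genes were. Both shares of members lie below those of all genes.

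Phenylephrine was compared directly with uremic plasma, a comparison added after the values were seen. Its differences hold no control array, but its tests share the spread of all 17 arrays. Against before NHD plasma 5 members were higher and 0 lower, or 11.1% higher, against 2.63% and 3.14% of all genes. They were Fzd2 (1.25 ± 0.22, adjusted p = 0.00429), Lef1 (0.83 ± 0.13, 0.00268), Ccn4 (1.18 ± 0.25, 0.0119), Wnt2 (0.61 ± 0.16, 0.0381) and Sfrp5 (0.42 ± 0.11, 0.0363). In a fit of only these 2 groups none of the 5 passed (adjusted p = 0.127 for Fzd2, 0.0851 for Lef1, 0.18 for Ccn4, 0.245 for Wnt2 and 0.282 for Sfrp5), and 13 members had an unadjusted p under 0.05. In the fit of all arrays 14 members and 5605 of the 29214 probe sets had such a p (limma). Without phenylephrine replicate 1 the 5 differences ran from 0.40 for Sfrp5 to 1.19 for Fzd2. Without replicate 2 they ran from 0.44 for Sfrp5 to 1.43 for Ccn4. In both fits, which leave 1 phenylephrine array, calls were lost among the members and among all genes alike. Without after NHD replicate 5 or control plasma replicate 1, 3 members passed, where 4.67% and 4.66% of all genes were called. With all arrays that share was 5.77%.

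Against after NHD plasma Lef1 was the 1 member past the threshold, 0.68 ± 0.13 higher with phenylephrine (adjusted p = 0.0174), where 0.662% of all genes were higher and 0.689% lower. The call was lost without phenylephrine replicate 1 or 2 (adjusted p = 0.429 and 0.142). Ccn4 differed by 0.82 ± 0.25 (adjusted p = 0.15), Fzd2 by 0.68 ± 0.22 (0.168) and Fzd4 by -0.69 ± 0.19 (0.113). Ctnnb1 differed by 0.09 ± 0.19, with a 95% interval from -0.32 to 0.50, and Lrp6 by -0.06 ± 0.28. Fibroblast marker sums were higher on both phenylephrine arrays than on all 12 uremic plasma arrays, and their part in these differences was not tested.

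Further genes of the pathway, listed by their roles, were read for 58 of 69 symbols. Before NHD 3 were higher and 3 lower than with control plasma, or 5.17% each way, against 3.75% and 2.09% of all genes. Among them were Gsk3a (0.77 ± 0.15, adjusted p = 0.0193), the second gene of the Gsk3 kinases, Amer1 (-0.89 ± 0.18, 0.0217), a membrane partner of Apc, Rspo3 (-0.84 ± 0.21, 0.0358), a secreted enhancer of Wnt signals, and the kinase Map3k7 (-0.42 ± 0.11, 0.0389). After NHD 15 were higher and 9 lower, or 25.9% and 15.5%, against 16.7% and 16.3% of all genes. The smallest p-values were those of Amer1 (-1.24 ± 0.18), the casein kinase Csnk1g1 (-0.87 ± 0.14), the co-repressor Ctbp1 (0.90 ± 0.15) and Rspo3 (-1.27 ± 0.21). With phenylephrine 11 were higher and 5 lower, or 19% and 8.62%, against 11.7% and 11.9% of all genes. The smallest p-values were those of Kremen1, a receptor of Dkk proteins (1.55 ± 0.18, adjusted p = 0.000205), Csnk1g1 (-1.05 ± 0.18), Map3k7 (-0.77 ± 0.14) and Amer1 (-1.29 ± 0.23). After against before NHD 0 of the 58 passed. The medians of the list against control plasma, 0.03 in each of the 3 groups, lay beside medians of all genes of -0.05, -0.07 and -0.06.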

How the data were processed

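RNA of 17 cultures was read on Affymetrix arrays, 1 per sample. The deposited values are log2 expression values that the authors made with RMA, per the submitters' processing notes; no source used here states the version of RMA or which probes make up a probe set. RMA makes the arrays' distributions alike, which removes a change shared by most genes and compresses differences near the floor and ceiling.

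Groups and replicate numbers came from the sample titles (the last number where a title has several). Of 29214 probe sets, 15310 had 1 gene symbol in the platform annotation, 323 several and 13581 none here. The probe set with the highest mean stood for its gene. limma 3.58.1 (R 4.3.3; lmFit, eBayes; 13 residual and 3.32 prior degrees of freedom) was fitted to all arrays with 4 groups, two-sided p-values adjusted by Benjamini-Hochberg over all probe sets, with no filter on low values. All groups share 1 estimate of spread, although before NHD arrays scattered more. The procedure was tested on simulated data.

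The members, gene lists and alternatives were chosen with earlier results of these data known, and phenylephrine against uremic plasma was added after the values were seen. Named with values were members past the threshold in at least 1 of the 4 comparisons that leave out phenylephrine against uremic plasma, the pathway core, and the brightest and dimmest member of each role; Wnt1, Wnt2, Wnt2b, Fzd5, Fzd6, Fzd8, Sfrp2, Sfrp4 and Sfrp5 fall outside this rule and were chosen after their values were seen. Values of single arrays were checked by Dixon's test.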

Additional observations from a re-analysis of the deposited data

Results flagged for a closer look

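In groups of 6 arrays, the highest or lowest value of each named member was set against its nearest neighbour by Dixon's test, in 48 groups, of which chance marks about 1 in 20. It marked 2, both in after NHD replicate 4. Wnt5a read 7.73 there, below the next lowest after NHD value of 8.27. Dvl1 read 8.44 there, above the next highest of 8.10.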

How the results depend on the processing

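No called value changed sign under any of the 28 alternatives, and 47 of 3996 values did so while past the threshold in neither setting. After NHD against control plasma, 6 of the 9 calls (Wnt5a, Fzd2, Fzd3, Lrp6, Sfrp1 and Ctnnb1) held in every alternative, and with phenylephrine 6 of 13 (Fzd2, Fzd3, Sfrp1, Ctnnb1, Lef1 and Ccn4) in every one that tested them. Counts below are in the order after against before NHD, then before NHD, after NHD and phenylephrine against control plasma, then phenylephrine against before and after NHD, whose counts with all arrays were 0, 4, 9, 13, 5 and 1. With array weights they were 5, 13, 19, 22, 12 and 8, where 13.8%, 26.5%, 56.3%, 48.9%, 20.6% and 12.3% of all genes were called. A fit that took the replicate number as a block gave 0 (9 unadjusted, with limma), 11, 14, 17, 9 and 2, beside 1.43%, 14.2%, 37.4%, 31.6%, 11.0% and 3.34% of all genes; Sfrp5, phenylephrine against before NHD, was lost there (adjusted p = 0.084). The titles do not say that equal numbers mark a pair, and the main fit took none. Same-numbered before and after NHD samples deviated together at r of 0.10, 0.42, 0.60, 0.57, -0.03 and 0.25 for numbers 1 to 6. Of the 6 before samples, 3 correlated best with their own number. Pairing of some samples is neither shown nor excluded by these values. Without both samples numbered 4 the counts were 1, 6, 15, 15, 7 and 2, beside 11.3%, 6.08%, 38.0%, 29.2%, 10.8% and 2.21% of all genes. In fits of only the compared groups they were 0, 0, 14, 17, 0 and 4 (with limma, 5, 11 and 13 had an unadjusted p under 0.05 where 0 passed), beside 0%, 0%, 40.1%, 38.4%, 0.172% and 4.17% of all genes. Adding each array's SD to the fit gave 0, 0, 6, 10, 7 and 1, beside 0.269%, 0.00689%, 13.2%, 18.2%, 9.04% and 1.68%, the before NHD calls being lost at adjusted p from 0.0685 to 0.163 (11 unadjusted), those of Lrp5, Gsk3b and Ccn4 after NHD at 0.0942, 0.111 and 0.094, and those of Dkk3, Dvl1 and Gsk3b with phenylephrine at 0.092, 0.0766 and 0.052. Of the brighter probe sets, which held 23 members, 0, 5, 9, 12, 3 and 0 passed, beside 3.06%, 13.9%, 48.7%, 39.0%, 11.2% and 2.43% of the brighter genes (7 and 3 unadjusted where 0 passed); Lef1, Wnt2 and Sfrp5 were not among them. Leaving out 1 array of a group other than phenylephrine gave 0 to 3, 0 to 11, 7 to 14, 7 to 14, 3 to 6 and 1. The shares of all genes called in these fits ran from 0% to 11.5%, 0% to 19.6%, 19.5% to 35.2%, 14.7% to 26.8%, 4.05% to 10.8% and 0.869% to 1.95%. Calls with phenylephrine were also lost without 1 of its 2 arrays, where the lone array was taken to vary like the other groups. The causes were not tested. The number of arrays, above all of control plasma and phenylephrine, limits precision.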

Other observations

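The before and after NHD replicates numbered 4 shared further values of the list. Fzd8 read 10.07 and 10.23 on them and 8.42 to 9.45 on the other 10 uremic plasma arrays. Fzd5 read 9.05 and 9.22. Its after NHD value was above the other 5 of that group, which lay at 7.97 to 8.62. Its before NHD value did not stand apart, since before NHD replicate 1 read 9.06. Apc read 9.91 and 9.94, against 9.13 to 9.70 on the other uremic plasma arrays. These genes did not pass in the comparisons of all arrays.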
